A study of Mus musculus with 12 samples.

Results

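The NK1.1+ and NK1.1- pools of thymic *i*NKT cells from WT mice were compared to describe the RNA of normal *i*NKT maturation, with 3 libraries of each pool, 6 of the 12 libraries of the series. All mice are labelled as C57BL/6J, 7 weeks old, with the thymus as the tissue and no treatment named. By the study's methods the WT mice are Cre-negative littermates that carry the Rosa26 miR-155 allele without Cre, so that the controls also carry the allele, while the miR-155KI mice carry it in 2 copies together with Cre under the *Cd4* promoter, which acts in conventional T cells as well as in *i*NKT cells. Thymocytes were depleted of CD8+ cells with beads and sorted on CD1d tetramer, TCRβ, CD44 and NK1.1. The methods speak of 3 biological replicates pooled for sequencing, while 3 libraries per group were deposited, and no source ties a library to named mice. The p-values therefore measure how far these libraries spread, which may be technical in part.

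*i*NKT cells are T cells with an invariant TCR α chain that binds lipids held by CD1d. They are selected in the thymus on double-positive thymocytes and then branch into *i*NKT1 cells, which depend on the transcription factor T-bet and make IFN-γ, *i*NKT2 cells, which make IL-4, and *i*NKT17 cells, which make IL-17. NK1.1, a receptor shared with NK cells, appears late, on *i*NKT1 cells, so the NK1.1- pool is a mixture of *i*NKT2, *i*NKT17 and immature *i*NKT cells and of *i*NKT1 cells that do not yet carry it. In sorted pools, fewer cells of a subset and less RNA per cell cannot be told apart, and this holds for every gene below.

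Levels below are counts per 1000000 counts (CPM) normalized by the TMM method, given in the order of replicates 1, 2 and 3, and log2 fold changes are NK1.1+ over NK1.1- from edgeR's quasi-likelihood test, with every p-value adjusted over every gene tested by the method of Benjamini and Hochberg. A gene is called higher or lower where its adjusted p was under 0.05. Of 13555 genes tested, 1341 were higher (9.89%) and 1478 were lower (10.9%) in NK1.1+ cells, together 20.8%, with 541 and 818 of them changed by more than 2-fold. The median log2 fold change was 0.88 among the genes that were higher, -1.12 among those that were lower and 0.01 over all genes tested. The libraries of the pools did not overlap in 1333 of the higher and 1465 of the lower genes, beside 38.7% of all genes tested. These calls are from a fit without a replicate block, as are all below unless the block is named. With the replicate number as a block the calls were 1999 higher and 2054 lower.

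**Figure D1:**
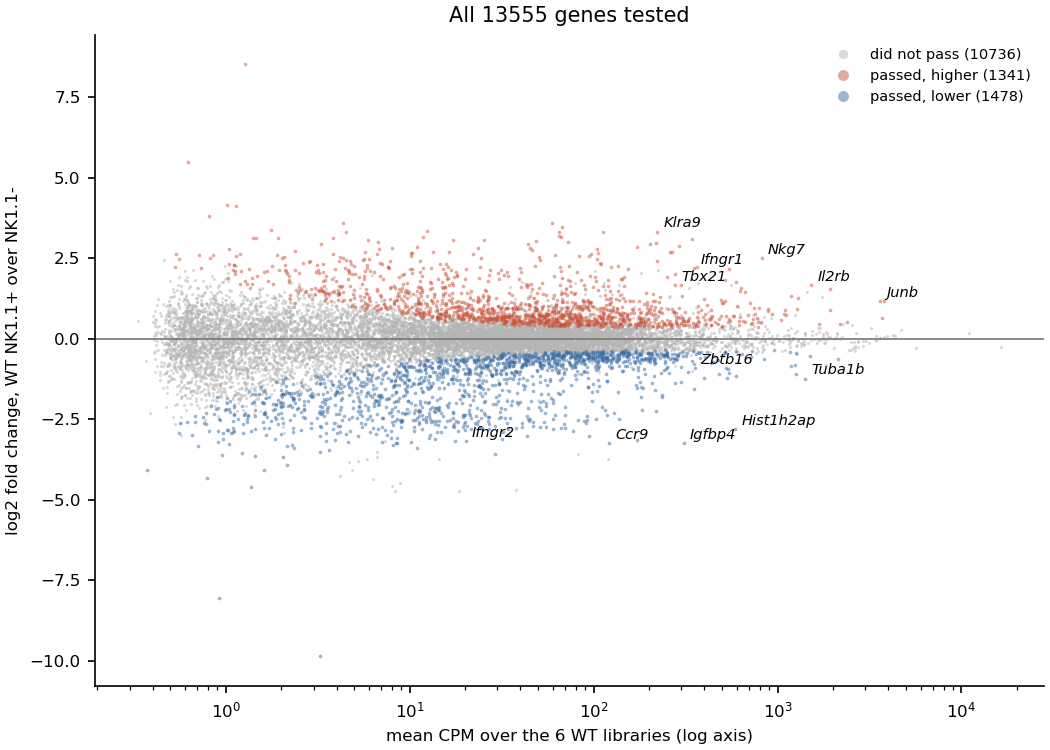
Log2 fold change (WT NK1.1+ over NK1.1-, vertical axis) against the mean CPM over the 6 WT libraries (horizontal log axis) of each of the 13555 genes tested, with 1341 higher genes in red and 1478 lower genes in blue. Among the labelled genes, *Klra9* (3.33) stands high and *Ccr9* (-3.24) and *Igfbp4* (-3.25) low. Farther out lie 4 higher and 6 lower genes with an absolute log2 fold change of at least 4.

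The libraries were first checked against their labels. The NK1.1 gene itself, *Klrb1c*, was at 70.5, 80.7 and 59.3 CPM in NK1.1- cells and at 761, 352 and 434 CPM in NK1.1+ cells (log2 fold change 2.88, standard error 0.30, adjusted p = 4.69e-04). *Cd44*, the other gene of the gate, was at 127 to 132 CPM against 275 to 306 CPM. Both were used to sort the cells and are no finding. The genes of the invariant receptor, *Trav11* and *Traj18*, were present in every library. Some libraries stand apart. In NK1.1- replicate 1 the summed level of 14 B cell and MHC class II markers was 1040 CPM, against 174 and 204 CPM in the other NK1.1- libraries and 265 to 312 CPM in NK1.1+ cells, and that of 16 myeloid markers was 273 CPM against 139 to 165 CPM, while *Cd8a* was at 16.7 CPM against 0.761 to 2.89 CPM. Replicate 1 of both pools had *Xist*, made from the inactive X chromosome, at 12.5 and 11.2 CPM against 135 to 240 CPM elsewhere. The summed level of the 6 erythroid markers was 154 and 178 CPM in replicate 3 of the pools against 23.7 to 30.8 CPM. Of the marker lists, 1 of 13 tested members (7.69%) passed as higher for myeloid cells (*Fcgr3*, also an NK cell gene). For B cells it was also 1 of 13 (*Cd22*, not without NK1.1+ replicate 2), beside 9.89% of all genes tested. As lower, 1 of 8 (12.5%) passed for double-positive thymocytes, beside 10.9% of all genes tested. That was *Aqp11*, which lost the call without NK1.1- replicate 3, NK1.1+ replicate 2 or NK1.1+ replicate 3 (adjusted p up to 0.0768). For erythroid cells and γδ T cells 0 of 5 each passed with edgeR or DESeq2, with 0 at an unadjusted p under 0.05, while with the replicate block the γδ marker *Trgv2* passed as higher and the myeloid marker *Xcr1* as lower. Of the 6 stromal markers *Pecam1* was lower and *Epcam* higher, the latter call being lost with any 1 library left out. Of 5 markers of regulatory T cells *Tnfrsf18* and *Il2ra* were higher, while *Foxp3*, which defines those cells, was too low to be tested, as were *Rag1* and *Rag2* of immature thymocytes. The summed level of 8 markers of conventional NK cells was 13.1, 26.5 and 10.1 CPM in NK1.1- cells and 47.9, 71.0 and 39.6 CPM in NK1.1+ cells, and 3 of 6 tested (*Ncr1*, *Klra8* and *Klrb1f*, all of them also in the receptor lists below) were higher, with a median of 2.09 and 2 higher without any 1 NK1.1- library or NK1.1+ replicate 2. Their defining marker *Eomes* was too low to be tested. No marker was at 0 in all 6 libraries. The part of other cells in the results was not tested, and the counts without replicate 1 of both pools are given with the main gene groups.

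The receptors and the lytic granule genes that mark cytotoxic lymphocytes were among the largest rises, and their promoters are shown first because members of these groups moved together. Windows of 300 bases around RefSeq start sites (250 before and 50 after, GRCm38.p6) were available for 9821 of the 13555 genes tested, 12533 windows in all. RUNX factors bind TGTGGT, and T-box factors such as T-bet bind GGTGTGA. Searched on both strands, TGTGGT was found in 13 of 18 windows of the NK receptor genes (72.2%) and 9 of 19 windows of the cytotoxic genes (47.4%), against 13.2% of all windows, 16.6% of those of higher genes and 13.6% of those of lower genes. It was in 1 of 11 windows of the Ly49 genes. GGTGTGA was in 4 of 19 windows of the cytotoxic genes and 1 of 18 of the NK receptor genes, against 3.38% of all windows. These are 2 of 21 motifs searched, the lists were chosen with results of these data known, windows of 1 gene overlap and several *Klr* genes are near-identical, so the shares are a description without a test, and a match is not a binding site.

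The windows of *Klrk1* (chr6:129623815-129624114, minus strand), *Klrc2* (chr6:129660547-129660846, minus), *Gzmb* (chr14:56262285-56262584, minus), *Prf1* (chr10:61297586-61297885, plus) and *Nkg7* (chr7:43436888-43437187, plus) are printed 5′ to 3′ along the gene, with TGTGGT or its reverse complement ACCACA and, in *Nkg7*, GGTGTGA in capitals. The match lies 129 bases before the start in *Klrk1*, 36 and 9 bases before it in *Klrc2*, 93 and 34 in *Gzmb*, 130 in *Prf1*, and in *Nkg7* 83 bases before it, with GGTGTGA 13 bases before it.
Klrk1: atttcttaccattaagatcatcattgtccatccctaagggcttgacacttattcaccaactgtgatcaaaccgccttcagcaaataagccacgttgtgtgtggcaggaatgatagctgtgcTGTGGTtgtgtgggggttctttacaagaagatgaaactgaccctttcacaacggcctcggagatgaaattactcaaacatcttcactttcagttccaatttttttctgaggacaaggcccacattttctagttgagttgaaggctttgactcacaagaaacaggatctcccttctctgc
Klrc2: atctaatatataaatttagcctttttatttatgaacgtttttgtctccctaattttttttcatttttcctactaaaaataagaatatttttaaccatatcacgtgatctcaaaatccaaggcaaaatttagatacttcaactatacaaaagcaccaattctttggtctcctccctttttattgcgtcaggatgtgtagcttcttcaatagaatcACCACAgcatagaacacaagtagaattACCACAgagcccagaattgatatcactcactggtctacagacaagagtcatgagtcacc
Gzmb: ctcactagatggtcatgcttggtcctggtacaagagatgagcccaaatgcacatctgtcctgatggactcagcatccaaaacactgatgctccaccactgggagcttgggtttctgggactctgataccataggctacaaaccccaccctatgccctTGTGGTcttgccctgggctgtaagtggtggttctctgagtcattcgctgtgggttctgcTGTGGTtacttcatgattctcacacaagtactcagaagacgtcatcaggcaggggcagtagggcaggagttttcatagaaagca
Prf1: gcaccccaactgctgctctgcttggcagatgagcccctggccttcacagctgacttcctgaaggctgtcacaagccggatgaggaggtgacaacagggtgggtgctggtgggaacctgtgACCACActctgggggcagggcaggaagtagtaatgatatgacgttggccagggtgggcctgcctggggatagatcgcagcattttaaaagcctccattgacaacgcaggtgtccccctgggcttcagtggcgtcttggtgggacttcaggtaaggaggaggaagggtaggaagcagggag
Nkg7: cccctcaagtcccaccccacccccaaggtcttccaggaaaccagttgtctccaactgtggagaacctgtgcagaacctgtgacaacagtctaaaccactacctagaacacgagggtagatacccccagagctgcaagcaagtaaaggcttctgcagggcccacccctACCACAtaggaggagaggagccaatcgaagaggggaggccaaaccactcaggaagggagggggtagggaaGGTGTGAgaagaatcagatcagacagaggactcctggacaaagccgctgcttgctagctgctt

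Lower in NK1.1+ cells were the genes of DNA replication and mitosis, whose promoters are known for the CCAAT box, bound by NF-Y, and for TTTGAA, the cell cycle homology region through which the DREAM complex acts. CCAAT was found in 21 of 28 windows of the proliferation genes (75%), against 37.7% of all windows and 40.2% of those of lower genes. TTTGAA was in 10 of 28 (35.7%), against 12.3% and 17.3%. The E2F motif TTCCCGC was in 7 of 28 (25%), against 8.04% and 10.8%. A second E2F form, GGCGGGA, was in 8 of 28 (28.6%), against 20.1% and 24.8%. TTTGAA was also in 8 of 11 windows of the Ly49 genes. The window of *Cdk1*, the kinase that drives entry into mitosis (chr10:69352863-69353162, minus strand), holds CCAAT (as ATTGG) 208, 80 and 48 bases and TTTGAA 71 and 15 bases before the start, all in capitals.
Cdk1: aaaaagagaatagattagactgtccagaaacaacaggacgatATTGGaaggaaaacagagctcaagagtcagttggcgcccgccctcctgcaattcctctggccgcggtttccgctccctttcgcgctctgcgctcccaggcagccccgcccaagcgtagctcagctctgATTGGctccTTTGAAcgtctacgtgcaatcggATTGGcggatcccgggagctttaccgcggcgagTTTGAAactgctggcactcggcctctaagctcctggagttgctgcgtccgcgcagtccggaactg

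NK cell receptors, together with the Ly49 receptors, had the highest medians of the groups. Of 20 tested genes of NK receptors and their adaptors, the gate gene left out, 17 were higher and 0 lower, with a median log2 fold change of 2.68, and 17 were higher without replicate 1 of both pools. The NK cell markers above moved with them, and their part was not tested. *Klrk1*, which encodes the activating receptor NKG2D, was at 44, 62.1 and 42 CPM in NK1.1- cells and at 444, 341 and 381 CPM in NK1.1+ cells (log2 fold change 2.98, standard error 0.18, adjusted p = 4.71e-06). *Klrc1* and *Klrc2*, which encode the inhibitory NKG2A and the activating NKG2C, were at 9.33 to 16.6 and 11.4 to 15.7 CPM in NK1.1- cells and at 100 to 149 and 86.1 to 145 CPM in NK1.1+ cells (log2 fold changes 3.31 and 3.15). Their partner CD94, encoded by *Klrd1*, moved with them, from 33.7 to 64.4 CPM to 260 to 465 CPM (2.93). The pools did not overlap in any of these 4 genes. For *Klrc1* and *Klrc2* this was a condition of being named among the largest rises and is no finding. *Klre1*, an NK receptor chain, reached 153, 119 and 96.4 CPM against 11.3, 14.2 and 7.83 CPM (3.47), and *Cd244*, the SLAM-family receptor 2B4, 40.2, 26.4 and 25 CPM against 3.89, 4.34 and 2.72 CPM (3.06). *Fcer1g*, a signaling adaptor, was also higher (2.78). The 3 members that did not pass were *Klrb1a* (log2 fold change 1.13), *Klrg1* (1.78) and *Crtam* (-0.92). These 3 and *Klrd1* and *Fcer1g* were named after their values were seen.

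The Ly49 receptors, which bind MHC class I, were higher in 8 of 9 genes tested, with a median of 2.81, and in 8 also without replicate 1 of both pools. *Klra5*, the gene with the largest rise under the rule for named genes, was at 8.82, 12.3 and 6.11 CPM in NK1.1- cells and at 136, 120 and 71.4 CPM in NK1.1+ cells (log2 fold change 3.59, standard error 0.33, adjusted p = 2.25e-04). *Klra9* was at 29.8 to 48.9 CPM against 260 to 549 CPM (3.33). *Klra3*, *Klra6* and *Klra10* were higher by 2.09, 2.81 and 2.81. *Klra4* alone did not pass, at 1.94, 14.5 and 1.67 CPM against 3.45, 39.2 and 3.94 CPM, with replicate 2 the highest library in both pools (log2 fold change 1.35, adjusted p = 0.596), and it passed with the replicate block (adjusted p = 0.00164). The Ly49 genes are near-identical copies of one another, so reads may be split between them and the value of a single gene is uncertain.

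Of the tested genes of these lists, 10 of the 20 NK receptor genes and all 9 Ly49 genes lie in the natural killer gene complex. From the first *Klrb1* gene to the last Ly49 gene (chr6:128609227-131247362, GRCm38, 2.64 Mb) 22 *Klr* genes were tested, of which 19 were higher and 0 lower, with a median log2 fold change of 2.84. The gate gene *Klrb1c*, which is no finding, is counted in the 22, in the 19 and in the median. Among the other 11 genes tested there, 4 were higher, namely *BC064078*, *Cd69*, *Gabarapl1* and *Gm156*, and 0 lower. The median of these 11 was 0.91, below that of the receptor genes around them. *Styk1*, which encodes a kinase-like receptor of NK cells and lies just beyond the Ly49 genes (chr6:131299142-131353597), was at 16.9 to 25.2 CPM in NK1.1- and 167 to 244 CPM in NK1.1+ cells (log2 fold change 3.31, adjusted p = 4.60e-06).

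**Figure D2:**
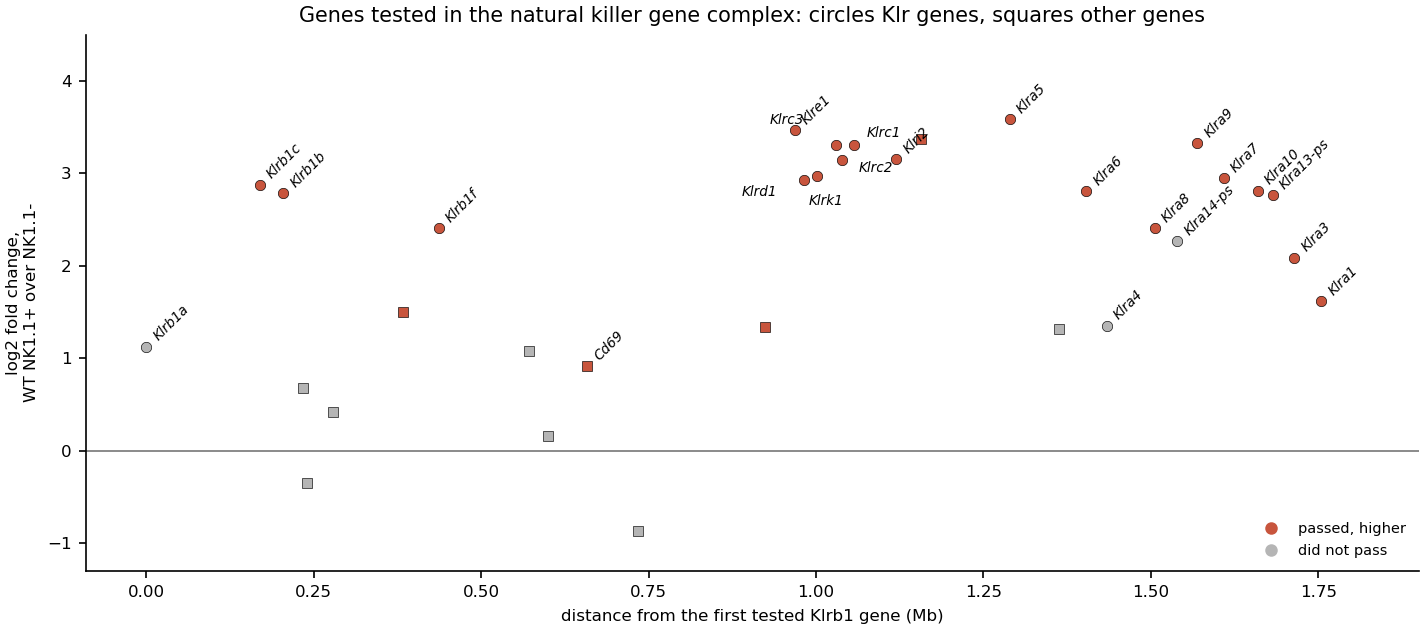
Log2 fold change (WT NK1.1+ over NK1.1-, vertical axis) of each gene tested in the natural killer gene complex, by its distance in Mb from the first tested *Klrb1* gene (horizontal axis), with red for genes that passed as higher and grey for genes that did not pass. Of the *Klr* genes (circles) 19 of 22 were higher, the gate gene *Klrb1c* among them, and of the other genes (squares) 4 of 11.

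Cytotoxic granule genes were higher in 11 of 18 tested and lower in 1 (*Rab27a*, which docks granules, -0.54, a call lost without NK1.1- replicate 1, NK1.1+ replicate 2 or NK1.1+ replicate 3), with a median of 1.45. Without replicate 1 of both pools 10 were higher, and here too the NK cell markers above moved in the same direction. *Gzmb*, a granule protease that triggers apoptosis, was at 57.9, 100 and 57.4 CPM in NK1.1- cells and at 629, 694 and 521 CPM in NK1.1+ cells (log2 fold change 3.10, standard error 0.23, adjusted p = 2.59e-05). *Prf1*, which encodes the pore-former perforin, was at 9.94 to 11.9 CPM against 72 to 115 CPM (3.02), and *Nkg7*, a granule membrane protein, at 205 to 311 CPM against 1198 to 1607 CPM (2.50). *Gzma* was at 14.2, 23.9 and 10 CPM against 159, 147 and 81.3 CPM (3.01, adjusted p = 0.00374), and its call was lost without replicate 1 of both pools (adjusted p = 0.101). *Fasl*, the death ligand that engages Fas, was at 25.8 to 35.6 CPM against 125 to 219 CPM (2.47). *Tnfsf10*, which encodes TRAIL, was higher by 1.57, and *Serpinb6b*, a protease inhibitor, by 1.66. In each of these genes but *Rab27a* every NK1.1+ library lay above every NK1.1- library. For *Gzmb*, *Prf1* and *Gzma* this was a condition of being named among the largest rises and is no finding.

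Of 7 chemokine ligand genes tested, 3 were higher and 0 lower. *Ccl5*, an attractant of T and NK cells, was at 38.8, 50.7 and 37.8 CPM in NK1.1- cells and at 307, 331 and 274 CPM in NK1.1+ cells (log2 fold change 2.84, adjusted p = 4.47e-06). *Xcl1*, which attracts cross-presenting dendritic cells, was at 58.9 to 83.2 CPM against 444 to 471 CPM (2.70), and *Ccl4* at 2.78 to 5.09 CPM against 13.3 to 31.8 CPM (2.68). *Ccl3* had a log2 fold change of 2.25 at 0 to 0.636 CPM against 0.73 to 2.64 CPM and did not pass (adjusted p = 0.0975), and it passed with the replicate block (adjusted p = 0.0134).

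**Figure D3:**
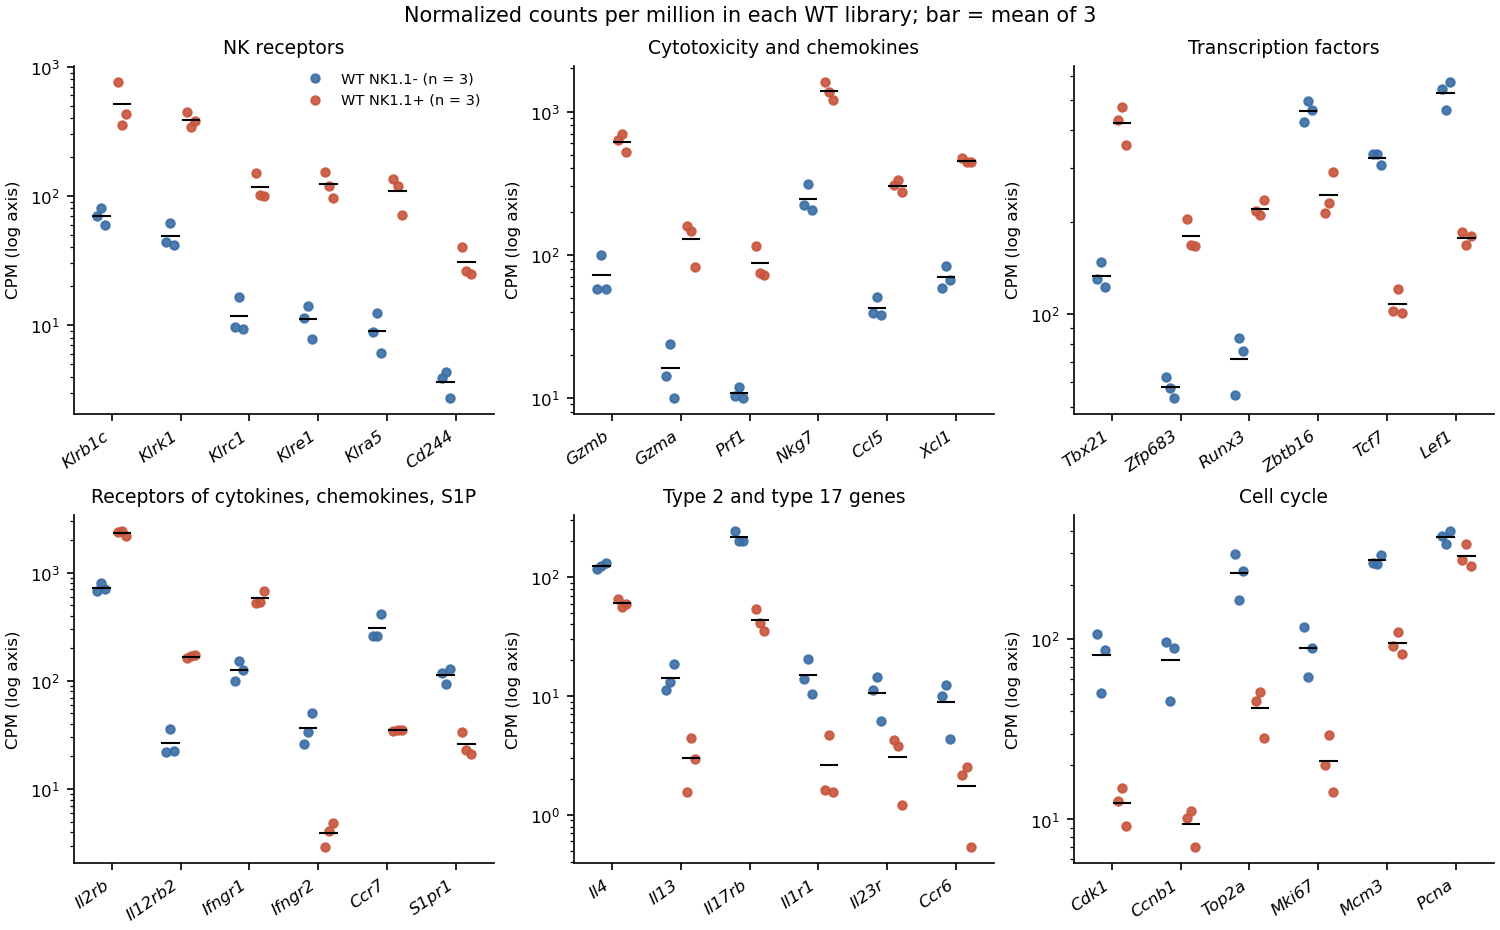
CPM (vertical log axes) of 36 genes in each WT library, NK1.1- in blue and NK1.1+ in red, with a bar at the mean of the 3 libraries of a pool. The pools lie apart in every gene drawn, by the least in *Pcna*, which passed only with the replicate block, at 339 to 398 against 254 to 339 CPM. The genes were chosen for the figure and include the gate gene *Klrb1c* and genes whose naming required no overlap, so this is no finding. Of all genes tested, 38.7% did not overlap.

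The type 1 axis, that is the T-bet program with the IL-12, IL-18, IL-15 and IFN-γ pathways, had 10 of 16 genes higher and 2 lower, with a median of 1.64, and 11 were higher without replicate 1 of both pools. *Tbx21*, which encodes T-bet (chr11:97098071-97115331, minus strand), was at 130, 148 and 123 CPM in NK1.1- cells and at 430, 473 and 356 CPM in NK1.1+ cells (log2 fold change 1.65, standard error 0.14, adjusted p = 2.13e-05). *Ifng*, its target cytokine, was at 38.9, 71.2 and 49.1 CPM against 203, 233 and 126 CPM (1.82, adjusted p = 0.00329; named after its values were seen). *Stat4*, which carries the IL-12 signal, was at 10.7 to 19.1 CPM against 86.3 to 87.3 CPM (2.45), and *Il12rb2*, the signaling chain of the IL-12 receptor, at 22.1 to 36 CPM against 161 to 174 CPM (2.64). *Il2rb*, the chain shared by the IL-2 and IL-15 receptors, was at 673, 800 and 708 CPM against 2356, 2409 and 2181 CPM (1.67, adjusted p = 8.08e-06). The other IL-12 receptor chain, *Il12rb1*, went the other way, at 143 to 151 CPM against 92.9 to 109 CPM (-0.52, adjusted p = 0.0100; without NK1.1+ replicate 3 the axis held 1 lower gene in place of 2).

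The IFN-γ receptor chains moved in opposite directions. *Ifngr1*, the ligand-binding chain, was at 99.9, 151 and 126 CPM in NK1.1- cells and at 524, 529 and 679 CPM in NK1.1+ cells (log2 fold change 2.20, standard error 0.17, adjusted p = 1.37e-05). *Ifngr2*, the chain that completes the signaling receptor, was at 25.8, 33.3 and 49.9 CPM against 2.89, 4.13 and 4.86 CPM, and its log2 fold change was -3.20 with a standard error of 0.29 (adjusted p = 3.13e-05). The libraries did not overlap in either gene, which for *Ifngr2* was a condition of being named among the largest falls and is no finding. Both calls held in each of the 20 alternative settings tried.

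Among 41 transcription factors of *i*NKT development tested, 11 were higher and 14 lower, with a median of -0.11. Those that were higher include *Zfp683*, which encodes Hobit, a factor of tissue-resident lymphocytes, at 62.6, 57.7 and 53.3 CPM against 205, 168 and 167 CPM (log2 fold change 1.64), and *Prdm1*, which encodes the related Blimp-1, at 3.89 to 5.03 CPM against 16.1 to 19.9 CPM (2.08). *Runx3*, which supports cytotoxic programs, was at 54.6 to 84 CPM against 211 to 236 CPM (1.63), while *Runx1* was lower (-0.86). *Irf8* and *Ikzf3*, the latter encoding Aiolos, were higher by 1.27 and 0.74. Among those that were lower were the HMG-box factors of immature T cells, *Tcf7* (TCF-1), at 333, 333 and 308 CPM against 103, 121 and 101 CPM (-1.59), *Lef1* (-1.57), *Tox2* (-2.89), *Sox4* (-2.81) and *Tox* (-0.97). *Id3*, an inhibitor of E proteins, was at 402, 287 and 396 CPM against 88.6, 81.3 and 57.6 CPM (-2.25, adjusted p = 2.17e-05). *Zbtb16*, which encodes PLZF, the master factor of innate-like T cells, was at 424 to 497 CPM against 213 to 292 CPM (-0.91, adjusted p = 8.94e-04). *Mycn* was at 5.05 to 11.9 CPM against 0.73 to 2.24 CPM (-2.39), and *Myb* and *Hivep3* were lower by 1.43 and 0.80 on the log2 scale. *Gata3*, the type 2 factor, was lower by 0.50 on the log2 scale (adjusted p = 0.0108), at 543 to 653 CPM against 402 to 430 CPM.

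Of the other transcription factors, *Zbtb7a* was higher by 0.67 on the log2 scale (adjusted p = 0.00997). *Klf13* (0.65), *Bcl6* (0.74), *Tcf12* (0.52) and *Egr2* (-0.67) passed at adjusted p of 0.0256, 0.0383, 0.0432 and 0.0422, and each lost the call with 1 of several libraries left out, NK1.1- replicates 1 and 3 and NK1.1+ replicates 2 and 3 among them (adjusted p up to 0.106, 0.185, 0.161 and 0.194). *Irf4*, which is induced by TCR signals, was at 46.3, 101 and 90.1 CPM against 9.9, 32.6 and 21 CPM, with replicate 1 the lowest of its pool in both. It did not pass (-1.90, adjusted p = 0.0602) and passed with the replicate block (adjusted p = 1.38e-07). *Nfil3* (1.06) and *Id2* (0.63) behaved likewise (adjusted p = 0.215 and 0.292, with the block 1.17e-04 and 0.00675). The 13 factors that passed in neither fit were *Ets1* (0.29), *Bcl11b* (-0.28), *Ikzf1* (-0.23), *Zbtb7b* (-0.20), *Satb1* (-0.11), *Klf2* (0.20), *Zbtb32* (-0.65), *Ikzf2* (0.12), *Foxo1* (-0.11), *Tcf3* (-0.07), *Bach2* (0.15), *Tcf4* (-0.10) and *Myc* (0.03).

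Genes of the *i*NKT2 program were lower in 12 of 16 tested and higher in 1, the chemokine receptor gene *Ccr8* (1.29), with a median of -1.20. *Il4* itself was at 118, 123 and 130 CPM in NK1.1- cells and at 65.1, 56.2 and 59.3 CPM in NK1.1+ cells (log2 fold change -1.04, adjusted p = 1.65e-04), and *Il13* at 11.2 to 18.5 CPM against 1.57 to 4.47 CPM (-2.25). Both were named after their values were seen. *Il17rb*, which encodes an IL-25 receptor chain, was at 243, 200 and 203 CPM against 54, 41.3 and 35.4 CPM (-2.31). *Ccr4*, a homing receptor, was at 130 to 185 CPM against 23.9 to 29.1 CPM (-2.56), and *Il6ra*, the IL-6 receptor chain, at 162 to 250 CPM against 35.9 to 41.5 CPM (-2.36). The costimulatory receptor *Icos* was lower by 1.23 and the inhibitory receptor *Pdcd1* (PD-1) by 1.17 on the log2 scale. Without replicate 1 of both pools 14 were lower. *Il4ra*, the IL-4 receptor chain, was the member farthest the other way, at 42.6, 83.5 and 83.7 CPM against 136, 288 and 447 CPM (2.05). It did not pass (adjusted p = 0.0601) and passed with the block (adjusted p = 1.98e-07).

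Genes of the *i*NKT17 program were lower in 13 of 23 tested and higher in 1, with a median of -1.71. With the block 18 were lower, and without replicate 1 of both pools 13. These include *Sdc1* (syndecan-1, a surface marker of *i*NKT17 cells), at 18.6, 33.7 and 32 CPM against 5.38, 6.13 and 3.02 CPM (log2 fold change -2.54), *Itgb3* (integrin β3), at 141 to 166 CPM against 36 to 45.2 CPM (-1.93), *Nrp1* (neuropilin-1), at 69.8 to 92.2 CPM against 20.2 to 27.1 CPM (-1.71), and *Ramp1*, a receptor activity-modifying protein (-1.36). *Ccr6* and *Il23r*, receptors that define these cells, were lower by 2.36 and 1.79 on the log2 scale (adjusted p = 0.0144 and 0.0199). *Il17a* was at 3.96, 19.2 and 7.28 CPM against 1.27, 3.5 and 0.778 CPM and did not pass (-2.47, adjusted p = 0.0572, and 7.46e-05 with the block). The member that was higher was *Maf*, a factor of IL-17-producing T cells (0.56, adjusted p = 0.0290), which lost the call without NK1.1- replicate 1, NK1.1- replicate 3 or NK1.1+ replicate 2 (adjusted p up to 0.124). *Ccr6*, *Il23r* and *Il17a* were named after their values were seen.

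Among the 23 tested genes that mark *i*NKT cells at stages 0 and 1, 12 were lower and 2 higher, with a median of -0.67. *Ccr9*, the chemokine receptor of thymocytes, was at 278, 157 and 220 CPM in NK1.1- cells and at 26.8, 22.6 and 19.8 CPM in NK1.1+ cells (log2 fold change -3.24, standard error 0.22, adjusted p = 6.73e-06). *Slamf6*, a SLAM receptor used in *i*NKT selection, was at 153 to 201 CPM against 29.8 to 51.2 CPM (-2.13), while *Slamf7* and *Cd48* of the same family were higher (2.66 and 1.03). The 2 higher members were *Bcl6*, given above, and *Itm2a* (0.77), and with NK1.1- replicate 2, NK1.1- replicate 3 or NK1.1+ replicate 2 left out 0 were higher.

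**Figure D4:**
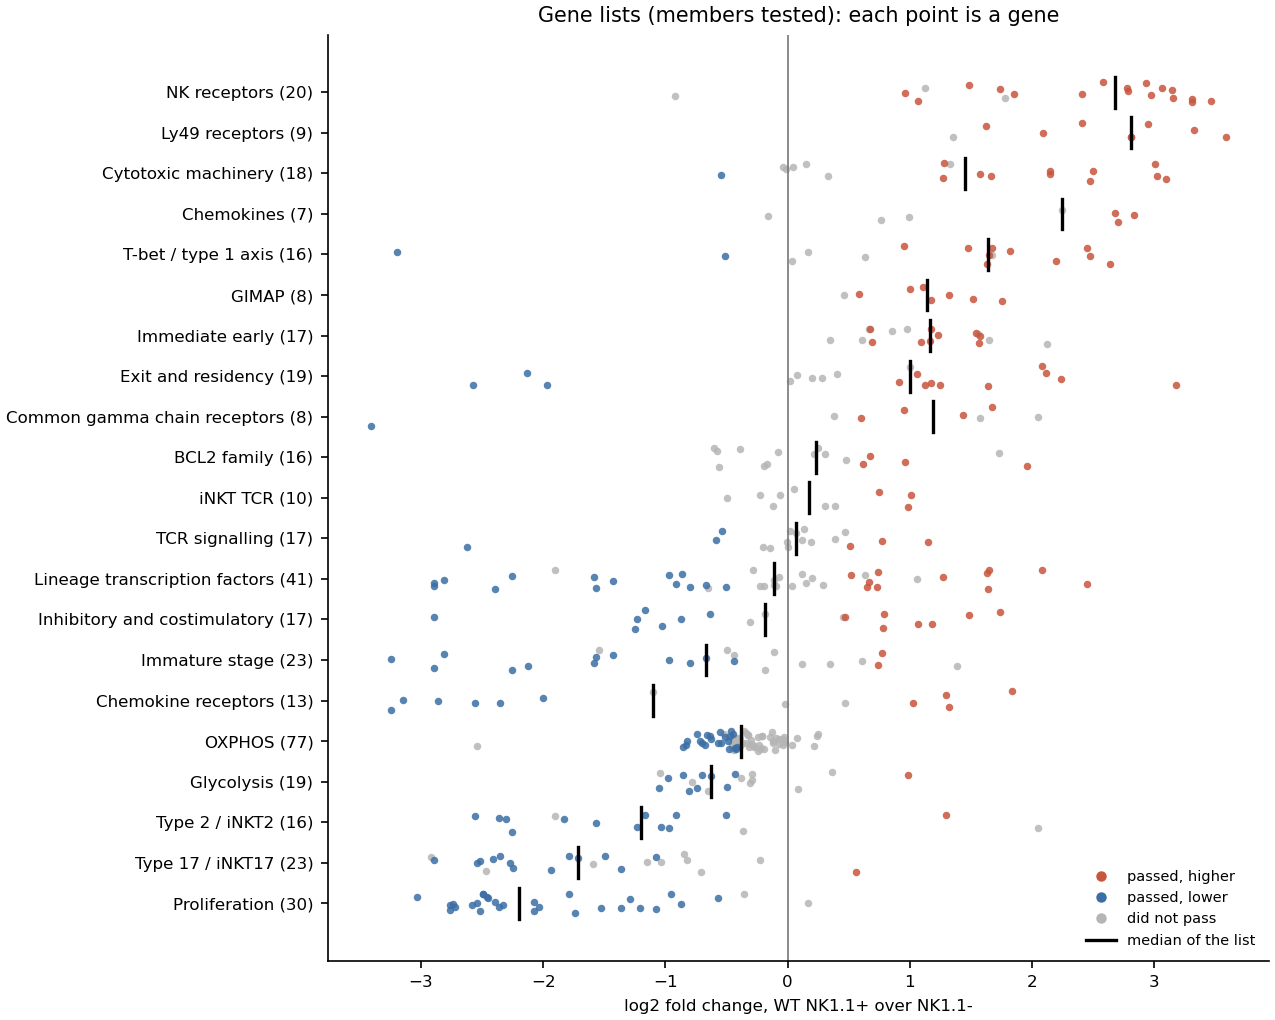
Log2 fold change (WT NK1.1+ over NK1.1-, horizontal axis) of every tested member of 21 gene lists, with the number tested in parentheses. Red and blue points passed the test as higher and lower, grey points did not pass, and black bars are medians, from 2.81 for the Ly49 receptors to -2.20 for proliferation genes, beside 0.01 over all genes.

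The genes that control where *i*NKT cells go differed between the pools. Of 13 chemokine receptor genes, 4 were higher and 6 lower. *Ccr7*, which leads T cells to lymph nodes and within the thymus, was at 259, 257 and 413 CPM in NK1.1- cells and at 34.2, 35.1 and 35.3 CPM in NK1.1+ cells (log2 fold change -3.15, adjusted p = 4.72e-06), and *Ccr10* was at 99.9 to 162 CPM against 13.6 to 21.5 CPM (-2.86). *Cxcr3*, the receptor of type 1 inflammation, was at 161 to 186 CPM against 344 to 573 CPM (1.32). Of 19 genes of thymic exit, adhesion and tissue residency, 10 were higher and 3 lower. The gate gene *Cd44*, which is no finding, is counted among the higher ones. Those that were lower include *S1pr1*, the receptor that draws T cells out of the thymus, at 118, 93.7 and 128 CPM against 33.6, 22.9 and 21.1 CPM (-2.13), and *P2rx7*, an ATP-gated channel (-1.97). Those that were higher include the residency integrin gene *Itga1*, at 11.1, 16.4 and 11.3 CPM against 106, 115 and 130 CPM (3.18, adjusted p = 4.47e-06), *Rgs1*, which dampens chemokine receptor signals, at 106 to 166 CPM against 534 to 641 CPM (2.24), and the Hobit and Blimp-1 genes above. *Klf2*, a factor that drives *S1pr1* in T cells, was at 28.6 to 55.3 CPM against 41.5 to 54.4 CPM and did not pass.

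Among 8 receptors that signal with the common γ chain, 4 were higher and 1 lower. *Il7r* was at 368, 381 and 285 CPM against 538, 505 and 523 CPM (log2 fold change 0.60, adjusted p = 0.00792), and *Il9r* at 3.78 to 4.79 CPM against 0.305 to 0.486 CPM (-3.41). *Il15ra* (0.95) and *Il2ra* (1.43) were higher, the former without its call when NK1.1- replicate 3 was left out (adjusted p = 0.0598) and the latter when any NK1.1- library or NK1.1+ replicate 2 was (adjusted p up to 0.106). The group had 2 higher genes without NK1.1- replicate 3, 6 without NK1.1+ replicate 1 and 7 with the block, *Il4ra* and *Il21r* (1.58) among them. *Bcl2*, the survival protein downstream of these receptors, was at 43.5, 38.9 and 34.9 CPM against 173, 142 and 141 CPM (1.96, adjusted p = 8.07e-06). Of 16 genes of its family 4 were higher and 0 lower, the others being *Bcl2a1b* (0.67), *Bcl2l1* (0.62) and *Mcl1* (0.96). Without NK1.1- replicate 2 *Bcl2l1* lost its call (adjusted p = 0.0549), and without NK1.1- replicate 3 *Mcl1* did (adjusted p = 0.0530). The death inducer *Bcl2l11* (BIM) was at 27.8, 70.6 and 60.8 CPM against 63, 185 and 280 CPM and did not pass (1.73, adjusted p = 0.168, and 7.65e-05 with the block).

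Inhibitory and costimulatory receptors split evenly, with 7 of 17 higher and 7 lower. *Tigit* (1.74), *Cd160* (1.49) and *Tnfrsf18*, which encodes GITR (1.18), were higher, while *Cd200*, which signals to myeloid cells, was at 32.2, 22.8 and 23 CPM against 3.96, 3.78 and 2.77 CPM (-2.89). Without NK1.1+ replicate 3, 5 were higher and 4 lower. Of 12 genes of TNF-family ligands and colony-stimulating factors, 5 were higher and 3 lower. *Csf1*, a growth factor of macrophages, was at 45.3, 45.3 and 51 CPM against 13.1, 10.7 and 10.9 CPM (-2.03), *Tnfsf11*, which encodes RANKL, an inducer of medullary thymic epithelium, at 33.1 to 36.6 CPM against 10.9 to 14.3 CPM (-1.48), and *Ltb*, lymphotoxin β, at 495 to 739 CPM against 1020 to 1345 CPM (0.91).

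The invariant receptor itself differed between the pools at the RNA level. *Trav11*, the Vα14 segment (chr14:53519303-53519859, plus strand), was at 254, 230 and 250 CPM in NK1.1- cells and at 531, 471 and 474 CPM in NK1.1+ cells (log2 fold change 1.01, adjusted p = 1.34e-04), *Traj18* at 34 to 36.4 CPM against 66.7 to 71.7 CPM (0.98) and *Trac* at 773 to 871 CPM against 1339 to 1386 CPM (0.75). These 3 of 10 receptor segments were higher and 0 were lower. The β chain genes ran between -0.49 for *Trbv29* (adjusted p = 0.0557, and 0.00342 with the block) and 0.39 for *Trbv13-3*, and *Trbc1* and *Trbc2* had log2 fold changes of -0.12 and -0.22, so that the rise seen for the α chain passed for no β chain gene. *Trav11* shares its sequence with near-identical segments, among which reads could be split. Of 17 genes of the TCR complex and its signaling, 3 were higher and 3 lower (17.6% each, beside 9.89% and 10.9% of all genes tested). *Themis*, which tunes TCR signals during thymic selection, was at 52.1, 36.6 and 28.5 CPM against 7.31, 6.54 and 5.16 CPM (-2.62), and *Cd247*, the ζ chain, was lower by 0.54 on the log2 scale. *Ptpn22*, a phosphatase that restrains TCR signaling, was higher by 1.15 and *Ptprc*, which encodes CD45, by 0.78.

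Proliferation genes formed the group with the lowest median. Of 30 tested, 28 were lower and 0 higher, with a median log2 fold change of -2.20, and 25 were lower without replicate 1 of both pools. *Ccnb2*, a mitotic cyclin, was at 122, 88.8 and 136 CPM in NK1.1- cells and at 16.4, 21 and 13.7 CPM in NK1.1+ cells (-2.76, standard error 0.20, adjusted p = 9.29e-06). *E2f2*, a transcription factor of the cell cycle, was at 36.7 to 46.7 CPM against 5.53 to 7.45 CPM (-2.76), *Cdc6*, which loads the replicative helicase, at 41.9 to 42.5 CPM against 6.45 to 10.3 CPM (-2.32), and *Tyms*, which makes the thymidine of DNA, at 68.8 to 123 CPM against 15.8 to 20 CPM (-2.49). *Cdk1*, whose window is printed above, was at 108, 50.2 and 86.7 CPM against 12.7, 15 and 9.24 CPM (-2.73; named for its window after its values were seen). No library of either pool overlapped the other in these genes.

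Histone genes fell with them. Of 56 histone genes tested, 33 were lower and 0 higher, and in histone cluster 1 (chr13:21715763-23934851) 29 of 44 were lower, with a median of -2.35, while 0 of the 4 other genes tested between them passed. Their summed level was 1905, 1037 and 2483 CPM in NK1.1- cells and 412, 429 and 317 CPM in NK1.1+ cells. *Hist1h2an* was at 17.6, 10 and 16.7 CPM against 0.761, 1.32 and 2.34 CPM (-3.32), and *Hist1h3c* at 8.33 to 27.2 CPM against 1.46 to 2.94 CPM (-3.21). Histone genes are near-identical and largely lack poly(A) tails, so single values are uncertain and depend on the library kit, which the labels and the methods name differently.

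Glycolysis genes were lower in 9 of 19 tested and higher in 1, with a median of -0.62. *Pgk1* was at 355, 317 and 366 CPM against 156, 185 and 158 CPM (log2 fold change -1.06), *Ldha*, lactate dehydrogenase A, at 1437 to 1664 CPM against 757 to 888 CPM (-0.85), and *Pkm* at 1371 to 1810 CPM against 806 to 1000 CPM (-0.81). The exception was the glucose transporter gene *Slc2a3* (0.99). Of 77 genes of the respiratory chain and ATP synthase, 22 were lower and 0 higher, with a median of -0.38. That count was 2 without NK1.1+ replicate 3, 4 without NK1.1- replicate 1 and 46 without NK1.1+ replicate 1, and 42 with the block. *Uqcrq*, a subunit of complex III, was the clearest, at 206, 152 and 232 CPM against 128, 104 and 92.7 CPM (-0.86, adjusted p = 0.00501). Of 13 transcripts of the mitochondrial genome 0 passed with edgeR or DESeq2, 1 of them (*mt-Nd1*) was at an unadjusted p under 0.05, 3 passed as lower with the block, and 7 were lower without NK1.1- replicate 3, whose summed mitochondrial level was 11489 CPM against 13694 to 21012 CPM in the other 5 libraries. Of 83 ribosomal protein genes tested 1 was higher (*Rps27*) and 3 lower (*Rpl28* and *Rps26* among them), with a median of -0.03, and each of these 4 calls was lost when libraries were left out, that of *Rps26* only with the replicate block and replicate 1 of both pools left out.

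Immediate early genes, which are induced within minutes of a signal and also by cell handling, were higher in 9 of 17 tested and lower in 0, with a median of 1.17, in 16 with the block and in 12 without replicate 1 of both pools. *Dusp1*, a phosphatase of MAP kinases, was at 828, 1070 and 1076 CPM against 3243, 2720 and 2672 CPM (log2 fold change 1.54, adjusted p = 3.64e-05), and *Btg2*, an antiproliferative gene, at 314 to 333 CPM against 640 to 782 CPM (1.17). The summed level of the group was 5071, 8709 and 7104 CPM in NK1.1- cells and 13473, 17671 and 14408 CPM in NK1.1+ cells, with replicate 2 the highest and replicate 1 the lowest of its pool in both. Whether the sort or the time before lysis moved with this was not tested. Of 23 interferon-stimulated genes 3 were higher and 1 lower, with a median of 0.07, *Oasl2* being the lower one (-0.99) and *Ifi203* the highest (1.08), and with the block 6 were higher. Of 10 genes of TGF-β signaling only *Tgfbr2*, a receptor chain, passed (0.50, adjusted p = 0.0155). That is 10% higher, near the 9.89% among all genes tested. *Tgfbr2* did not pass without NK1.1- replicate 1, NK1.1- replicate 2 or NK1.1+ replicate 3 (adjusted p up to 0.0902). With the block 4 of the 10 were higher and 1 lower.

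*Mir155hg*, the transcript that hosts miR-155, did not differ detectably between the WT pools, at 12.9, 13.8 and 9.61 CPM in NK1.1- cells and at 11.9, 11.5 and 10.8 CPM in NK1.1+ cells (log2 fold change -0.08, standard error 0.22, adjusted p = 0.830). The mature miRNA is not measured by these counts. By RT-qPCR on sorted thymic *i*NKT cells, the study reported that miR-155 fell during development and was near its lowest at the terminal NK1.1+ stage. The sequence of mature miR-155 (RefSeq, chr16:84714143-84714165, plus strand) is given with the seed, bases 2 to 8, in capitals.
miR-155-5p: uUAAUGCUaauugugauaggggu
Of 15 genes described as miR-155 targets, 4 were higher and 0 lower, with a median of 0.40. *Socs1*, an inhibitor of cytokine signaling, was at 88, 80.6 and 102 CPM against 208, 200 and 206 CPM (1.18, adjusted p = 8.15e-05). The others that passed were *Maf* (0.56), *Pik3r1* (0.63) and *Inpp5d*, which encodes the phosphatase SHIP1 (0.41), and without NK1.1- replicate 1, NK1.1- replicate 3 or NK1.1+ replicate 2 only 1 of the 15 was higher. The other miRNA host transcripts tested, *Mir17hg*, *Mir142hg* and *Mir22hg*, did not pass.

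Other genes under the rule for the largest changes belong to none of these groups. *Tgfa*, a ligand of the EGF receptor, was at 1.74, 3.47 and 1.44 CPM against 17.4, 24.2 and 26.2 CPM (3.34), *Kcnj8*, a potassium channel, at 4.83 to 6.07 CPM against 24.3 to 62.3 CPM (3.07), and *Mcoln2*, a cation channel of endosomes, at 0.944 to 1.45 CPM against 8.53 to 13.4 CPM (3.06). The largest fall under that rule, which asks for a mean of at least 10 CPM in 1 pool, was that of *Slc22a3*. This organic cation transporter gene was at 57.3, 43.3 and 61.3 CPM against 4.62, 4.36 and 4.62 CPM (-3.57, standard error 0.19, adjusted p = 4.47e-06). *Igfbp4*, which binds insulin-like growth factors, was at 616, 369 and 688 CPM against 68, 57.4 and 50.6 CPM (-3.25), *Fbln1*, a matrix protein, at 46.2 to 69.1 CPM against 6.13 to 7.36 CPM (-3.11), and *Hc*, which encodes complement C5, at 14.4 to 16 CPM against 1.2 to 2.03 CPM (-3.24). *Pdlim4* (-3.40), *Kcnn2* (-3.23), *Phldb1* (-3.21) and *Plxdc1* (-3.18) fell to under 5 CPM. That the pools did not overlap in these genes was a condition of the rule and is no finding.

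The same contrast in miR-155KI mice used 6 other libraries. There 1025 of 12942 genes tested were higher (7.92%) and 796 lower (6.15%), together 14.1%, with a larger spread between libraries (common biological coefficient of variation 0.353 against 0.238 in WT). Of the 1341 genes higher in WT, 709 were also called higher in miR-155KI (52.9% of the WT list and 69.2% of the miR-155KI list), and of the 1478 lower in WT, 526 were (35.6% and 66.1%). Of the WT-higher genes tested in miR-155KI, 96.1% had a log2 fold change of the same sign there, and of the WT-lower genes 94.6%, while 0 and 1 were called the opposite way. A call in one genotype and not in the other does not show a difference. The difference itself, tested as an interaction over all 12 libraries with edgeR, passed for 4 of 14401 genes (0.0278%), with 1167 at an unadjusted p under 0.05, and DESeq2 called 140 and limma-voom 0.

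The 4 genes were *Sostdc1*, *Csf1*, *Parm1* and *Aqp11*. In *Sostdc1*, *Csf1* and *Parm1* the fall from the NK1.1- to the NK1.1+ pool was larger in miR-155KI mice (log2 fold changes -4.51, -3.97 and -4.82 against -0.57, -2.03 and -1.76 in WT), and *Aqp11*, an aquaporin, had log2 fold changes of -0.85 in WT, a call lost with some libraries left out as given above, and 2.18 in miR-155KI. *Zfp683* lay just past the threshold, with a log2 fold change of 1.64 in WT and 2.75 in miR-155KI (adjusted p = 0.0527 for the difference). *Gzmb* (3.10 and 3.48), *Klrk1* (2.98 and 3.82) and *Ccr7* (-3.15 and -2.32) had the same direction in both genotypes.

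**Figure D5:**
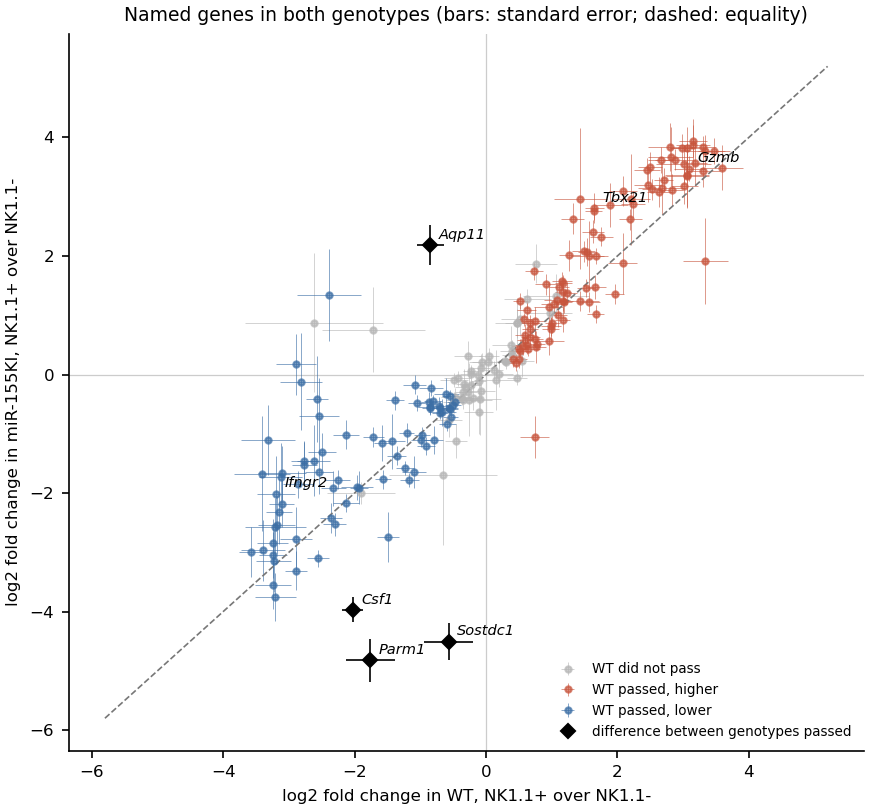
Log2 fold change of each named gene, NK1.1+ over NK1.1-, in WT (horizontal axis) and miR-155KI mice (vertical axis), with bars for standard errors and a dashed line of equality. Points are red, blue or grey where the WT test passed as higher, as lower or not at all, and black diamonds mark the 4 genes whose difference between genotypes passed.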

How the data were processed

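RNA of sorted *i*NKT cells was measured by RNA-seq in 12 libraries. The authors deposited raw read counts per gene (48709 rows, GRCm38/mm10) and a second table of CPM values, a signal that equals the deposited counts times 1 factor per library and was not used for the tests. bcl2fastq 2.17.1.14 is in the submitters' processing notes. The aligner and the counter are not given in the sources used here. By its label the kit was SMART-Seq v4, by the methods TruSeq. WT totals ran from 13967322 to 20518257 counts. Names turned into dates by a spreadsheet (27 rows, 0.249% of counts) stayed in the tests but were not named.

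Genes were kept by filterByExpr, scaled by TMM and tested with edgeR's robust quasi-likelihood test on the 6 WT libraries (13555 genes; R 4.3.3, edgeR 4.0.16), on the 6 miR-155KI libraries, and for the interaction on all 12. DESeq2 1.42.0 and limma 3.58.1 were alternatives, with other scalings, filters, pseudocounts, left-out libraries and the replicate block. The labels give both pools replicates 1 to 3. Deviations from the pool means correlated by 0.315, 0.257 and 0.119 between libraries of the same number over 13555 genes. Between other numbers the correlations ran from -0.278 to 0.121, so that of replicate 3 lay within their range. The sample titles set the number beside the genotype but do not say whether it pairs the libraries, and the correlations alone do not settle it. As given above, *Xist* was low in replicate 1 of both pools and the erythroid markers were high in replicate 3 of both. Whether same-number libraries share mice was not tested, and the main fit would leave out such a pairing. The main fit, which gives every count and p-value not marked otherwise, has no block. The replicate block was an alternative, and it changed calls where the text says so.

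Members of 43 lists and their motifs were chosen with earlier results of these data known. Named genes are the 15 largest rises and 15 largest falls with no overlap and a mean of at least 10 CPM in 1 pool, leaving out predicted, receptor segment, sex-linked and gate genes, up to 5 members per list by the smallest p, all transcription factors and invariant receptor segments, marker and gate genes, and the interaction genes. Named after their values were seen were *Klrd1*, *Fcer1g*, *Klrb1a*, *Klrg1*, *Crtam*, *Klra4*, *BC064078*, *Gabarapl1*, *Gm156*, *Rab27a*, *Ifng*, *Il12rb1*, *Il4*, *Il13*, *Il4ra*, *Ccr8*, *Ccr6*, *Il23r*, *Il17a*, *Itm2a*, *Il21r*, *Bcl2l11*, *Cdk1*, *Pcna*, *mt-Nd1*, *Art2a-ps*, *Trgv2*, *Xcr1*, *Klra8*, *Klrb1f*, *Ncr1*, *Epcam*, *Pecam1*, *Cd22*, *Fcgr3*, *Il2* and the 3 genes at 0 in a pool. A few genes of the lists are not reported here by name. Positions are from GENCODE M21. The test was checked on counts simulated for the 13555 WT genes (50 genes per fold, 6 false calls).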

Additional observations from a re-analysis of the deposited data

Results flagged for a closer look

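The NK1.1+ against NK1.1- difference itself differed between WT and miR-155KI mice for 4 genes in the interaction test over 12 libraries (edgeR, adjusted p under 0.05). *Sostdc1*, a secreted antagonist of BMP and Wnt signals, was at 3.4, 2.6 and 2.72 CPM in WT NK1.1- cells and at 2.34, 1.83 and 1.7 CPM in WT NK1.1+ cells, against 37.2, 47.4 and 56.7 CPM and 1.54, 1.9 and 2.74 CPM in miR-155KI cells. The difference of the log2 fold changes, miR-155KI minus WT, was -3.97 (standard error 0.42, adjusted p = 7.89e-04). For *Csf1* the WT pools were at 45.3 to 51 and 10.7 to 13.1 CPM and the miR-155KI pools at 117 to 171 and 7.82 to 11.1 CPM, a difference of -1.97 (standard error 0.25, adjusted p = 0.00547). For *Parm1*, a membrane protein, they were at 5.09 to 7.83 and 1.26 to 2.41 CPM against 19.9 to 25.4 and 0.70 to 0.938 CPM, a difference of -3.10 (standard error 0.50, adjusted p = 0.0438). In these 3 genes every miR-155KI NK1.1- library lay above every WT NK1.1- library. The CPM values were scaled within each genotype and not together, so levels compare only roughly between genotypes. The differences of the log2 fold changes are from the fit over 12 libraries.

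*Aqp11* was at 14, 15.6 and 19.9 CPM in WT NK1.1- and 9.29, 8.89 and 9.39 CPM in WT NK1.1+ cells, against 7.41, 5.27 and 4.76 CPM and 35.4, 25.5 and 18.3 CPM in miR-155KI cells, a difference of 2.99 (standard error 0.40, adjusted p = 0.00577). Its WT call was lost without NK1.1- replicate 3, NK1.1+ replicate 2 or NK1.1+ replicate 3 (adjusted p up to 0.0768). It is one of the markers of double-positive thymocytes in the lists. Over 17 alternative settings the sizes ran from -4.21 to -3.78 for *Sostdc1*, -2.13 to -1.82 for *Csf1*, 2.76 to 3.23 for *Aqp11* and -3.34 to -2.83 for *Parm1*, and the calls held in 16, 16, 16 and 8 of them.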

How the results depend on the processing

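With 1 WT library left out, the count of higher genes ran from 852 to 1486 and of lower genes from 980 to 1778. It was 885 higher without NK1.1- replicate 1, 888 without NK1.1- replicate 3, and 852 higher and 980 lower without NK1.1+ replicate 3. Leaving out 1 miR-155KI library gave 467 to 1299 higher and 310 to 1243 lower genes. These were 467 and 324 without NK1.1- replicate 1, 531 and 392 without replicate 2, 478 and 310 without replicate 3, and 1299 and 1243 without NK1.1+ replicate 1. The count for the difference between genotypes was 140 with DESeq2, 0 with limma-voom (1039 at an unadjusted p under 0.05), 7 with DESeq2's size factors, 162 with no low-count filter, 23 with the replicate block and 3 to 46 with 1 library left out (46 without miR-155KI NK1.1+ replicate 1, 14 without replicate 3 and 7 without replicate 2).

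Other WT settings stayed within 1.5 times. DESeq2 called 1519 higher and 1609 lower, limma-voom 1300 and 1519, and the fit without replicate 1 of both pools 1457 and 1666. The share of calls that were higher was 47.6%, and 39.0% with library totals alone (1136 and 1774), 40.3% with limma on log2(CPM + 1) and 40.5% on log2(CPM + 0.1). The replicate block gave 1999 higher and 2054 lower WT genes, and kept 1341 of the 1341 higher and 1468 of the 1478 lower calls. Of 215 named genes tested, 165 were called, 0 of them reversed in any setting, 138 kept the call in every setting, and the block ended 0 calls and added 16. Of these, the text gives *Irf4*, *Nfil3*, *Id2*, *Ccl3*, *Trbv29* and *mt-Nd1*, and the others include *Bak1*, *Ifit3*, *Fasn*, *Tgfb1*, *Tgfbr3*, *Smad7*, *Cd3g*, *mt-Atp8* and *mt-Nd3*. It changed no other call of these genes.

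Some uncalled log2 fold changes changed sign. With replicate 1 of both pools left out, without and with the replicate block, *Foxo1* was at 0.088 and 0.090, *Tcf4* at 0.21 and 0.21, *Myc* at -0.11 and -0.13 and *Trbv1* at -0.15 and -0.14. *Myc* was at -0.0087 with limma-voom, -0.011 with the block, -0.030 with library totals, -0.060 on log2(CPM + 1) and -0.061 on log2(CPM + 0.1), and *Trbv1* at -0.0061, -0.014 and -0.014 in the last 3 of these. With single libraries left out the ranges were -0.087 to 0.44 for *Bach2*, -0.28 to 0.13 for *Foxo1*, -0.024 to 0.46 for *Klf2*, -0.23 to 0.012 for *Mir155hg*, -0.47 to 0.11 for *Mir22hg*, -0.32 to 0.26 for *Myc*, -0.15 to 0.032 for *Tcf3*, -0.24 to 0.10 for *Tcf4*, -0.13 to 0.13 for *Trbv1* and -0.22 to 0.061 for *Trbv13-1*. On simulated counts with 3 libraries per pool the test found 16, 58, 90 and 96% of genes changed 1.5-, 2-, 4- and 8-fold. The simulation changed only 50 genes per fold, while 20.8% of genes were called in the data. It also drew each library independently. These shares therefore need not hold for the WT comparison.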

Other observations

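The GIMAP genes, which encode GTPases of lymphocyte survival and lie side by side on chromosome 6, were higher in NK1.1+ cells in 7 of 8 tested, with 5 to 8 higher when single libraries were left out. *Gimap3* was at 305, 297 and 215 CPM in NK1.1- cells and at 1140, 814 and 804 CPM in NK1.1+ cells (log2 fold change 1.76). *Gimap8* (1.52), *Gimap5* (1.18) and *Gimap6* (1.11) were also higher. Between the first and last of the family (chr6:48647234-48770851) 8 of 9 *Gimap* genes tested were higher and 0 of the other 2 genes passed. Of 8 genes of extracellular ATP, NAD and adenosine signaling, 3 were higher and 3 lower. *Entpd1*, which encodes CD39, an enzyme that degrades ATP, was at 15.7, 15.9 and 12.9 CPM against 93.4, 86.7 and 76.9 CPM (2.53, adjusted p = 4.71e-06), and *Cd38*, which consumes NAD, at 5.78 to 12.9 CPM against 33.9 to 42.4 CPM (1.89). *Adora2a*, an adenosine receptor, was at 71.3, 118 and 125 CPM against 184, 295 and 365 CPM (1.43, adjusted p = 0.0137). The ATP-gated channels *P2rx7* (-1.97) and *P2rx4* (-1.10) were lower, as was *Art2a-ps* (-2.11), whose call was lost without any 1 of the NK1.1- libraries or NK1.1+ replicate 2.

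Among 14 genes of S100 proteins, galectins and annexins, *Ahnak*, a scaffold that binds S100 proteins, was at 137, 160 and 133 CPM against 448, 424 and 494 CPM (1.67), *Anxa1* was higher by 2.20, and *Lgals3* (-1.38) and *Lgals1* (-1.08) were lower. *Anxa6* was higher by 0.52. Of 18 genes of sterol and fatty acid synthesis, 0 were higher and 2 lower (11.1%), near the 10.9% lower among all genes tested. These were *Scd2* (-1.20) and *Fdps* (-0.60), the latter not without NK1.1- replicate 2, NK1.1- replicate 3 or NK1.1+ replicate 3 (adjusted p up to 0.164).

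*Il2*, the T cell growth factor, had 2, 2 and 1 counts in NK1.1- and 67, 19 and 27 counts in NK1.1+ libraries (log2 fold change 4.17, standard error 0.76, adjusted p = 0.00268), and 3.21 in miR-155KI mice (adjusted p = 0.0279). It was named after its values were seen, as were the 3 genes with 0 counts in every library of 1 WT pool and a mean of at least 10 counts in the other. *Zfp781*, a zinc finger gene, had 0, 0 and 0 against 58, 46 and 43 counts, at least 13.7-fold higher in NK1.1+ cells by the limit of 3 counts per library. The pseudogene *Gm9531* had 62, 162 and 106 against 0, 0 and 0 counts, at least 42.5-fold lower in NK1.1+ cells, and *Hist1h2ah* 18, 39 and 36 against 0, 0 and 0 counts, at least 12.0-fold lower. In miR-155KI libraries *Zfp781* was at 0 in 4 of 6 and above 2 CPM in 1 library of each pool, and *Gm9531* was at 0 in 3 of 6.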
